A study of Mus musculus with 9 samples.

Results

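The genes described here are 10 members of the CXC and CX3C chemokine system in the sciatic dorsal root ganglia of mice. They are the ligands Cxcl1, Cxcl9, Cxcl10, Cxcl12, Cxcl14, Cxcl16 and Cx3cl1 and the receptors Cx3cr1, Cxcr4 and Cxcr6. Members were chosen by symbol, with earlier results of these data known. Each of the 10 had 1 row among the 45904 identifiers of the deposited table. All 10 were among the 17601 identifiers with a mean of at least 0.2 FPKM, a count of fragments divided by gene length and sequencing depth, that were tested. The ganglia hold the cell bodies of the sensory neurons that run in the sciatic nerve, together with glia, vessels and resident immune cells. All mice were C57BL/6, and ganglia were taken 24 h after surgery from 2 mice per library. The young sham group was 8 to 10 weeks old, and the aged sham and aged injury groups were 20 to 22 months old, with 3 libraries in each group. Injury was to the sciatic nerve, and no young injured group was analysed here.

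Chemokines are small secreted proteins that direct the movement of leukocytes through receptors coupled to inhibitory G proteins. CXC chemokines have a single residue between their leading cysteines, and the CX3C chemokine Cx3cl1 has a longer spacer. Cxcl16 and Cx3cl1 are unusual in that they are made as membrane proteins on a mucin stalk and are released by metalloproteases. In sensory ganglia, Cx3cl1 and Cx3cr1 are known as a signalling pair between neurons and macrophages, and Cxcl12 with Cxcr4 is known in pain and in neuronal guidance.

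Promoters were searched for letters known from chemokine regulation, and 4 are printed because they belong to the 2 rising ligands with a sequence at hand and to the interferon-induced pair Cxcl9 and Cxcl10. RefSeq (GRCm38.p6) windows from 250 bases before to 50 bases after the start were at hand for 9 of the 10 members, Cxcl16 being the exception. The letters searched, on both strands, were GGGA then any 2 bases then TNCC (a kappaB form), GAAA then any 2 bases then GAAA (an interferon response core), TTCNNNGAA (a GAS form) and TATAAA. Capitals mark the matches in the sequences, which run 5′ to 3′ along the gene's strand.
Cx3cl1 (chr8:94771930-94772229, plus strand): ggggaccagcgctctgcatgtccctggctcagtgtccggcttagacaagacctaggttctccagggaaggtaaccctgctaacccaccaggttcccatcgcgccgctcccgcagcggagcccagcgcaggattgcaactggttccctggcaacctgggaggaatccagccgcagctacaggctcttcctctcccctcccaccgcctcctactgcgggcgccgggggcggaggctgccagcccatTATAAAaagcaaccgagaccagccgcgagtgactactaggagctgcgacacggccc
Cxcl14 (chr13:56296502-56296801, minus strand): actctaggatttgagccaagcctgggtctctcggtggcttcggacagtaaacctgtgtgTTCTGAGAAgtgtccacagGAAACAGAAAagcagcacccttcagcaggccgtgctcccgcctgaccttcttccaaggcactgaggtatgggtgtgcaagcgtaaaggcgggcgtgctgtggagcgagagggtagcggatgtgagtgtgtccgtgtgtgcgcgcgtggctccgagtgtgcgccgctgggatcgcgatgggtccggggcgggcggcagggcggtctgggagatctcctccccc
Cxcl9 (chr5:92328030-92328329, minus strand): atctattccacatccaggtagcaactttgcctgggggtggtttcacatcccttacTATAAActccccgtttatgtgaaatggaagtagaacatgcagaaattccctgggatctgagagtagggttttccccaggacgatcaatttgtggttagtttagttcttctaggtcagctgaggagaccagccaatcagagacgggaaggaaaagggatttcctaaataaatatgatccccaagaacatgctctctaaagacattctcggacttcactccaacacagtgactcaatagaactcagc
Cxcl10 (chr5:92348840-92349139, minus strand): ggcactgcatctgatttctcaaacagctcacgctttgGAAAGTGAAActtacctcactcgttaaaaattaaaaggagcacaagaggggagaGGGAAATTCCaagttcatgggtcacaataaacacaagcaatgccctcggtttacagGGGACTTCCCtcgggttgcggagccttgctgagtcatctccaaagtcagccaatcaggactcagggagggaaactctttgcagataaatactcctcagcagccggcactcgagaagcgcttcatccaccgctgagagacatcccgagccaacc

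Cxcl10 held the kappaB form at -159 and -103 from its start, the latter on both strands, and the interferon core at -213. Cxcl14 held the GAS form at -191 on both strands, and the interferon core at -172. Cx3cl1 and Cxcl9 held TATAAA, at -6 and -195, and neither held any of the other searched letters. Among all 32851 promoter windows of that length, 4.01% held the kappaB form, 3.44% the interferon core, 8.30% the GAS form and 13.6% TATAAA. Among the 9 member promoters the kappaB form was in 2 (Cxcl1 and Cxcl10), the interferon core in 2, the GAS form in 1 and TATAAA in 3, the third being Cxcr4. These are matches of letters, and no binding was measured.

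Several properties of the libraries touch every result. Low FPKM values moved in steps of a single read, and the step size gave each library's relative depth. It ranged from 0.8461 in aged sham replicate 2 to 1.2252 in aged injury replicate 1, with young sham replicate 1 set to 1. With annotated gene lengths these steps correspond to roughly 11.2 to 16.2 M reads per library. Neuron markers were high in every library, with Tubb3 at 1153 FPKM or more and Scn10a at 117 FPKM or more. The pools differed in sex: the summed level of 4 Y-linked genes in aged sham replicate 1 was 69.7% of the young mean, and it was at most 0.0426% in the other 5 aged libraries. Age and sex therefore cannot be told apart in comparisons with the young group. T and NK cell markers, summed over 7 genes, were at 1.37 to 1.93 FPKM in young sham, 2.45 to 31.0 in aged sham and 4.92 to 40.0 in aged injury. The highest of each aged group was the library numbered 2.

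The members were moderately to weakly expressed. In young sham ganglia Cxcr4 was highest (10.3 ± 1.82 FPKM, SD, n = 3), followed by Cxcl12 (7.48 ± 1.21 FPKM) without overlap between their libraries. Cx3cr1 (2.27 ± 0.378 FPKM), Cxcl10 (2.16 ± 0.443 FPKM), Cx3cl1 (1.45 ± 0.374 FPKM) and Cxcl16 (1.38 ± 0.196 FPKM) formed a middle range in which each neighbour overlapped the next. Cxcl9, Cxcl14, Cxcl1 and Cxcr6 lay below 1 FPKM on average, again with each neighbour overlapping the next. In aged sham ganglia Cxcl12 (8.95 ± 1.99 FPKM) and Cxcr4 (8.92 ± 0.912 FPKM) overlapped, and Cxcl14 stood in the middle range at a mean of 2.74 FPKM. In aged injury ganglia Cxcl12 had the highest mean (12.0 ± 3.57 FPKM), above Cxcr4 (7.36 ± 1.55 FPKM), with overlap of single libraries. Cxcl12 exceeded 65.8% of tested identifiers in its mean over 9 libraries, and Cxcl1 exceeded 5.89%.

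**Figure D1:**
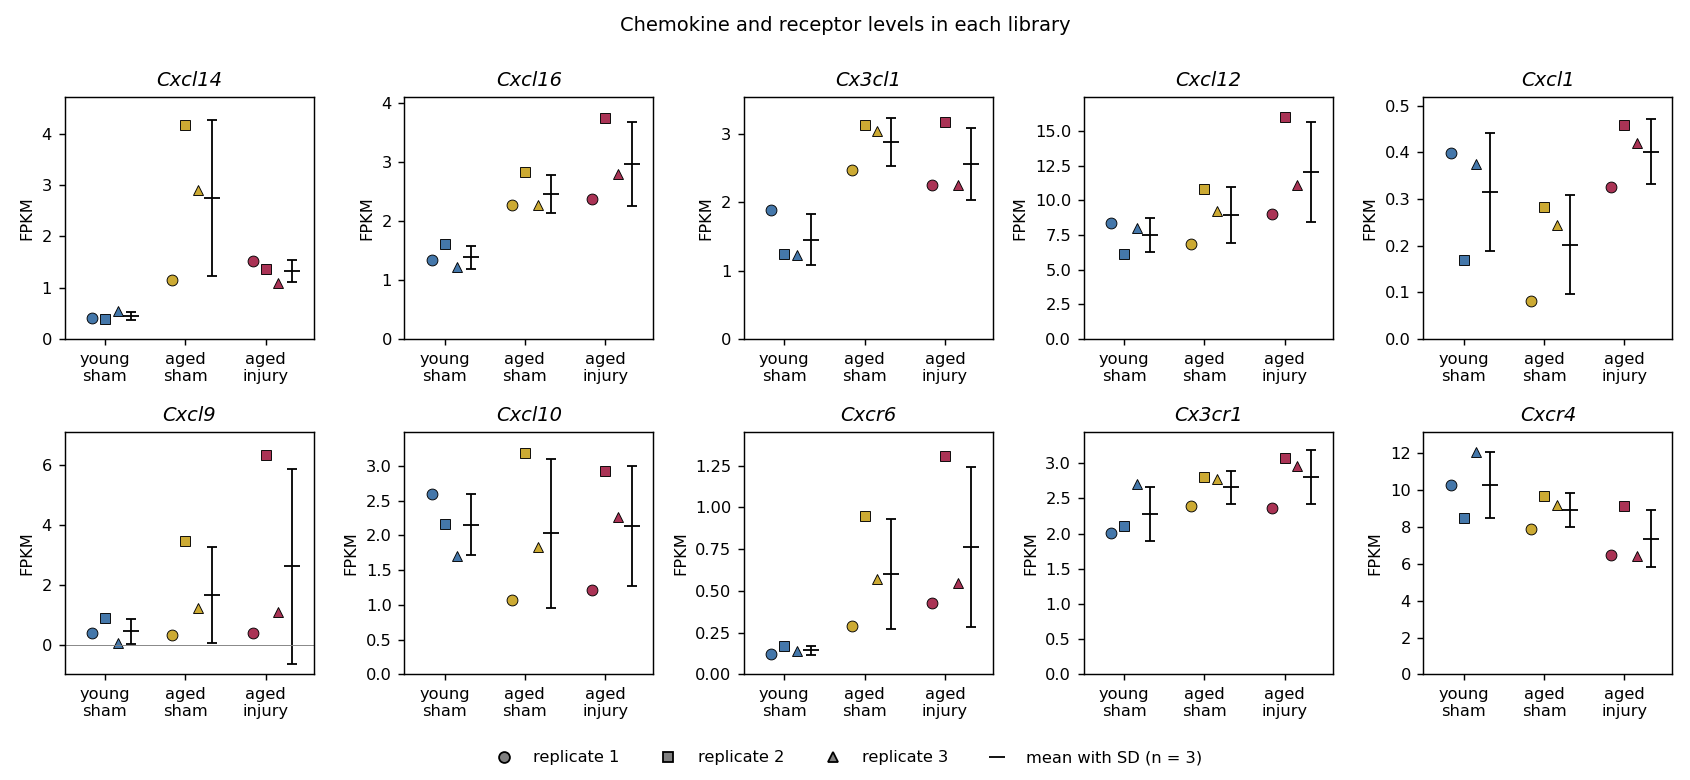
FPKM of each member (linear axes) in the 9 libraries, with replicate 1, 2 and 3 as circle, square and triangle, and the group mean with SD (n = 3) beside them. Cxcl14, Cxcl16, Cx3cl1 and Cxcr6 are higher in every aged sham library than in any young sham library, and Cxcl9 reaches 3.46 and 6.35 FPKM in the aged libraries numbered 2.

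With age, 3 ligands rose and no member fell. Cxcl14, Cx3cl1 and Cxcl16 were called by limma, 3 of 10 members, against a background of 4.02% of tested genes called, 2.53% higher and 1.49% lower. The median log2 change of the 10 members was 0.51, beside 0.05 over all tested genes. In 4 of the 10 members (the 3 above and Cxcr6) the libraries of the groups did not overlap, all higher, against 29.2% of all tested genes (17.7% higher and 11.5% lower). The members were chosen with earlier results of these data known, so these shares are a description. In whole ganglia, more cells of a type and more RNA per cell cannot be told apart.

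Among the membrane-bound ligands, Cx3cl1 (chromosome 8, 94772009 to 94782427, plus strand, mm10) had 1.88, 1.24 and 1.23 FPKM in young sham. The aged sham values were 2.47, 3.12 and 3.04 FPKM, and the aged injury values 2.25, 3.17 and 2.25 FPKM. Each of the 6 aged libraries lay above each young library, and the aged groups overlapped. Cx3cl1 rose 1.95-fold with age (log2 change 0.96, SE 0.195, limma adjusted p = 0.0387, n = 3 against 3). It was 1.72-fold higher in aged injury than in young sham (limma adjusted p = 0.0315). The injury change was -0.17 on the log2 scale, with a 95% interval from -0.61 to 0.27. The smallest whole reads that give these values were 51 to 161 per library.

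Cxcl16, the ligand of Cxcr6 and a scavenger receptor for oxidised lipoprotein (chromosome 11, 70453983 to 70459984, minus strand), was at 1.33, 1.60 and 1.22 FPKM in young sham. Aged sham libraries had 2.26, 2.82 and 2.26 FPKM, and aged injury libraries 2.36, 3.74 and 2.79 FPKM. All aged libraries were above all young libraries. Cxcl16 rose 1.72-fold with age (log2 change 0.78, SE 0.179, limma adjusted p = 0.0466) and 2.04-fold between young sham and aged injury (limma adjusted p = 0.00884). The latter was the single call among the members to hold in all 9 fits that each dropped a library (limma adjusted p from 0.0129 to 0.0437). It overlaps Zmynd15 on the opposite strand, whose log2 change with age was 0.89 (limma adjusted p = 0.130), and the handling of strand is not given in the sources used here.

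Cxcl14, an ancient chemokine of epithelia and stroma (chromosome 13, 56288643 to 56296551, minus strand), had the largest fold change with age among the members. It was at 0.416, 0.397 and 0.541 FPKM in young sham and at 1.15, 4.18 and 2.90 FPKM in aged sham. It was at 1.53, 1.36 and 1.10 FPKM in aged injury. The aged sham libraries lay above the young ones and spread over a wide range, while the aged injury libraries lay close together, near the lowest aged sham library. Cxcl14 rose 4.60-fold with age (log2 change 2.20, SE 0.383, limma adjusted p = 0.0297). It was 2.59-fold higher in aged injury than in young sham (limma adjusted p = 0.0463). Its log2 change with injury, -0.83, did not pass (limma adjusted p = 0.271). Without aged sham replicate 1, the lowest of its group, whose pool had Y-linked reads, that change was -1.34 (limma adjusted p = 0.0237). The other fits with 1 library left out gave -0.93 to -0.45 (limma adjusted p from 0.305 to 0.529). Reads numbered 9 to 11 per young library and 27 to 85 per aged sham library.

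These age calls were close to the threshold. With 1 library left out, Cxcl14 and Cxcl16 each kept the call in 2 of 9 fits and Cx3cl1 in 1. In the fits that lost it, the log2 change was 1.82 to 2.32 for Cxcl14 (limma adjusted p 0.0503 to 0.111), 0.68 to 0.83 for Cxcl16 (0.0625 to 0.170) and 0.86 to 1.15 for Cx3cl1 (0.0511 to 0.145). Cxcl14 kept it without young sham replicate 2 or aged sham replicate 1, Cxcl16 without young sham replicate 2 or aged injury replicate 2, and Cx3cl1 without aged injury replicate 2. In aged injury against young sham, Cxcl14 kept its call without aged sham replicate 1 or 2 and Cx3cl1 without young sham replicate 1 or aged sham replicate 1, and their other 7 fits gave a limma adjusted p of 0.0683 to 0.137 and 0.0501 to 0.116. With a pseudocount of 1 FPKM the Cxcl14 change in that comparison was 0.68 and its call was lost (limma adjusted p = 0.131), as it was with no filter (0.0762), after quantile normalization (0.0644) and with limma voom on recovered reads (0.107). The Cx3cl1 call there was lost with no filter (limma adjusted p = 0.0536) and in a fit of just both groups (0.0731). The 3 age calls were lost when just the sham groups were fitted (limma adjusted p from 0.0979 to 0.1). With no filter Cxcl16 and Cx3cl1 lost theirs (limma adjusted p = 0.0726 and 0.0558), and Cxcl16 also with a pseudocount of 1 FPKM (0.0598) and with limma voom (0.0508). The age change of Cxcl14 was 1.28 with a pseudocount of 1 FPKM and stayed called (limma adjusted p = 0.0430). In the first aged sham pool, whose Y-linked level was intermediate, Cxcl14, Cxcl16 and Cx3cl1 were at 1.15, 2.26 and 2.47 FPKM, above every young library. That pool was the lowest of aged sham for Cxcl14 and Cx3cl1, and level with replicate 3 as the lowest for Cxcl16. The part of sex was not tested. Macrophage markers, summed over 7 genes, were at 25.2 to 28.2 FPKM in young sham and at 38.4 to 65.0 FPKM in aged sham. Schwann cell markers, summed over 4 genes, were at 2661 to 3061 FPKM and at 1760 to 1871 FPKM. Neutrophil markers, summed over 5 genes, were at 120 to 203 FPKM, at 283 to 522 FPKM and, in aged injury, at 155 to 270 FPKM. The part of these cells in the results was not tested.

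**Figure D2:**
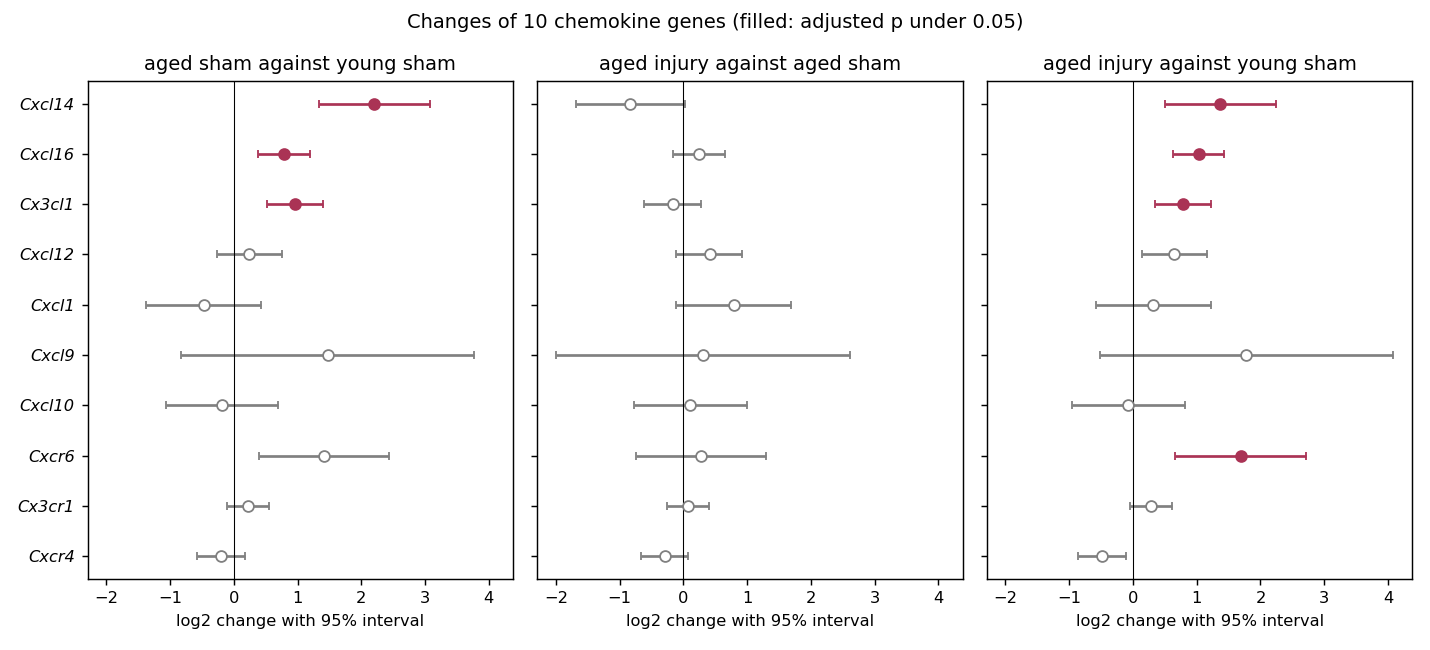
Log2 change of each member on the log2(FPKM + 0.1) scale with its 95% interval from limma, in the 3 comparisons, filled where the adjusted p was under 0.05. Cxcl14, Cxcl16 and Cx3cl1 are called in both comparisons with young sham, Cxcr6 in aged injury against young sham, and no member is called in aged injury against aged sham.

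Cxcl12, the constitutive ligand of Cxcr4 that is made by stromal and endothelial cells (chromosome 6, 117168535 to 117181367, plus strand), was at 8.37, 6.11 and 7.98 FPKM in young sham. Levels were 6.82, 10.8 and 9.24 FPKM in aged sham, against 9.02, 16.0 and 11.1 FPKM after injury. All aged injury libraries were above all young libraries, and aged sham overlapped both. Log2 changes were 0.24 with age, 0.41 with injury and 0.65 between aged injury and young sham, and none passed (limma adjusted p = 0.522, 0.369 and 0.0931). The interval of the last ran from 0.14 to 1.16. Endothelial markers, summed over 4 genes, were at 24.7 to 29.2, 28.8 to 32.8 and 25.8 to 29.9 FPKM in the 3 groups, and fibroblast markers at 251 to 297, 245 to 306 and 246 to 370 FPKM. The part of these cells was not tested.

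Cxcl1, a ligand of Cxcr2 that attracts neutrophils (chromosome 5, 90891241 to 90893115, plus strand), was at 0.398, 0.169 and 0.376 FPKM in young sham. Levels were 0.0815, 0.282 and 0.244 FPKM in aged sham, against 0.325, 0.459 and 0.421 FPKM after injury. It was the single member whose aged injury libraries did not overlap the aged sham libraries, a pattern found in 25.4% of tested genes (11.7% higher and 13.7% lower). The injury change of 0.79 on the log2 scale did not pass (95% interval -0.11 to 1.69, limma adjusted p = 0.320). The smallest whole reads behind it were 1 to 6 per library, 7 in all in aged sham (exact Poisson 95% interval 2.81 to 14.4) and 16 in aged injury (9.15 to 26.0). A factor shared by all libraries of a gene is unknown in these reads, and the intervals cover counting error only.

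Among the members, the ligands of Cxcr3 that interferon gamma induces, Cxcl9 and Cxcl10, overlapped between all groups, and neither was called. Cxcl9 (chromosome 5, 92321347 to 92328079, minus strand) was at 0.418, 0.914 and 0.0925 FPKM in young sham. Levels were 0.348, 3.46 and 1.26 FPKM in aged sham, against 0.426, 6.35 and 1.10 FPKM after injury, which is 68.7-fold from its lowest to its highest library. The groups overlapped in each comparison, and the log2 change with age was 1.47 with a 95% interval from -0.83 to 3.77 (limma adjusted p = 0.388). Without both aged libraries numbered 2, a choice made after the data were seen, the age change was 0.74. It was 0.74 to 2.24 with 1 library left out, the lowest without aged sham replicate 2 and the highest without aged sham replicate 1. Leaving out young sham replicate 3 gave 0.84, and leaving out young sham replicate 2 gave 2.03. The highest libraries of Cxcl9 were those where T and NK cell markers were highest, at 31.0 and 40.0 FPKM summed. They were also the highest of their groups for B and plasma cell markers (41.6 and 110 FPKM) and macrophage markers (65.0 and 63.5 FPKM). Within young sham, replicate 3 had the highest summed T and NK cell markers (1.93 FPKM) and the lowest Cxcl9. The single markers were low there and disagreed. Klrd1 (0.839 FPKM) and Cd3g (0.419 FPKM) were at their highest of young sham in that library. Cd3e (0 FPKM), Trbc2 (0.172 FPKM) and Nkg7 (0.204 FPKM) were at their lowest. The part of these cells was not tested.

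Cxcl10 (chromosome 5, 92346638 to 92348889, minus strand) was at 2.59, 2.17 and 1.71 FPKM in young sham, 1.07, 3.18 and 1.84 FPKM in aged sham and 1.22, 2.93 and 2.27 FPKM after injury. The 3 groups overlapped, and the log2 changes were -0.19 with age and 0.11 with injury (limma adjusted p = 0.796 and 0.914). The interval of the age change ran from -1.07 to 0.70. Cxcl10 lies within Art3 on the opposite strand, which was not called in any of the 3 comparisons.

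Among the receptors, Cxcr6, which marks memory and tissue-resident T cells and binds Cxcl16 (chromosome 9, 123806475 to 123811760, plus strand), was at 0.120, 0.170 and 0.142 FPKM in young sham. Levels were 0.287, 0.947 and 0.574 FPKM in aged sham, against 0.425, 1.31 and 0.550 FPKM after injury. All aged libraries were above all young libraries, and the highest of each aged group was the library numbered 2. Cxcr6 was 3.22-fold higher in aged injury than in young sham (log2 change 1.69, SE 0.454, limma adjusted p = 0.0408). The age change of 1.42 did not pass (limma adjusted p = 0.0956). With 1 library left out, the former held in 2 of 9 fits, without aged sham replicate 1 or 2, and the other 7 gave a limma adjusted p from 0.0514 to 0.121. Without both aged libraries numbered 2, a choice made after the data were seen, it was 1.26 (limma adjusted p = 0.0663). The size rested on the pseudocount, with a log2 change of 0.59 at 1 FPKM, where the call was lost (limma adjusted p = 0.0885), and 2.17 at 0.01 FPKM. It was lost too with no filter on low values (limma adjusted p = 0.0601).

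Cxcr6 rested on few reads, 10 in all in young sham (exact Poisson 95% interval 4.80 to 18.4), 41 in aged sham (29.4 to 55.6) and 60 in aged injury (45.8 to 77.2). It lies within Fyco1 on the opposite strand, whose log2 change was -0.06 with age and 0.06 between aged injury and young sham. The T cell receptor subunit Cd3e was at 0 to 0.0560 FPKM in young sham, at 0.270, 2.31 and 0.595 FPKM in aged sham, and 0.216, 2.84 and 0.949 FPKM after injury. Cd3e and Cxcr6 thus had their highest aged sham and aged injury libraries in common. The same libraries were the highest of their groups for B and plasma cell markers (41.6 and 110 FPKM summed) and macrophage markers (65.0 and 63.5 FPKM). Among the 7 T and NK cell markers, Cd3e, Cd8a and Trbc2 did not overlap between sham groups, while Cd3d, Cd3g, Nkg7 and Klrd1 did. The part of T cells in the change of Cxcr6 was not tested.

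Cx3cr1, the Cx3cl1 receptor of monocytes and tissue macrophages (chromosome 9, 119901616 to 120069879, minus strand, mm10), had the smallest range of the 10 members. It was at 2.01, 2.11 and 2.71 FPKM in young sham, 2.39, 2.80 and 2.78 FPKM in aged sham and 2.37, 3.08 and 2.96 FPKM after injury, within 1.54-fold over all libraries. The groups overlapped in each comparison. Log2 changes were 0.22 with age (95% interval -0.10 to 0.55) and 0.07 with injury (-0.26 to 0.40), and neither passed (limma adjusted p = 0.354 and 0.845). Its annotated span overlaps other genes, among them Gorasp1 on the same strand, with log2 changes of 0.36 with age (limma adjusted p = 0.0423) and -0.36 with injury (limma adjusted p = 0.0398), and Csrnp1, with 1.08 with injury (limma adjusted p = 0.0316). Of the 7 macrophage markers, Mrc1 (2.23 to 2.95 FPKM in young sham, 2.59 to 3.41 FPKM in aged sham) and Fcgr1 (0.762 to 1.21 and 1.17 to 1.41 FPKM) overlapped between the sham groups, as Cx3cr1 did. The other 5 did not overlap, among them Cd68 (2.18 to 2.35 and 3.52 to 6.80 FPKM) and C1qa (12.7 to 15.9 and 21.6 to 39.7 FPKM).

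Cxcr4, the Cxcl12 receptor of leukocytes, glia and neurons (chromosome 1, 128588199 to 128592293, minus strand), was at 10.3, 8.50 and 12.1 FPKM in young sham. Levels were 7.91, 9.67 and 9.19 FPKM in aged sham, against 6.51, 9.16 and 6.43 FPKM after injury. Aged injury replicates 1 and 3 lay below the other 7 libraries, and aged injury replicate 2 overlapped both sham groups. Log2 changes were -0.20 with age, -0.29 with injury and -0.48 between aged injury and young sham, and none passed (limma adjusted p = 0.475, 0.381 and 0.0857). The last was called when all libraries were given the same median (-0.56, limma adjusted p = 0.0353) and without aged injury replicate 2 (-0.65, limma adjusted p = 0.0388).

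**Figure D3:**
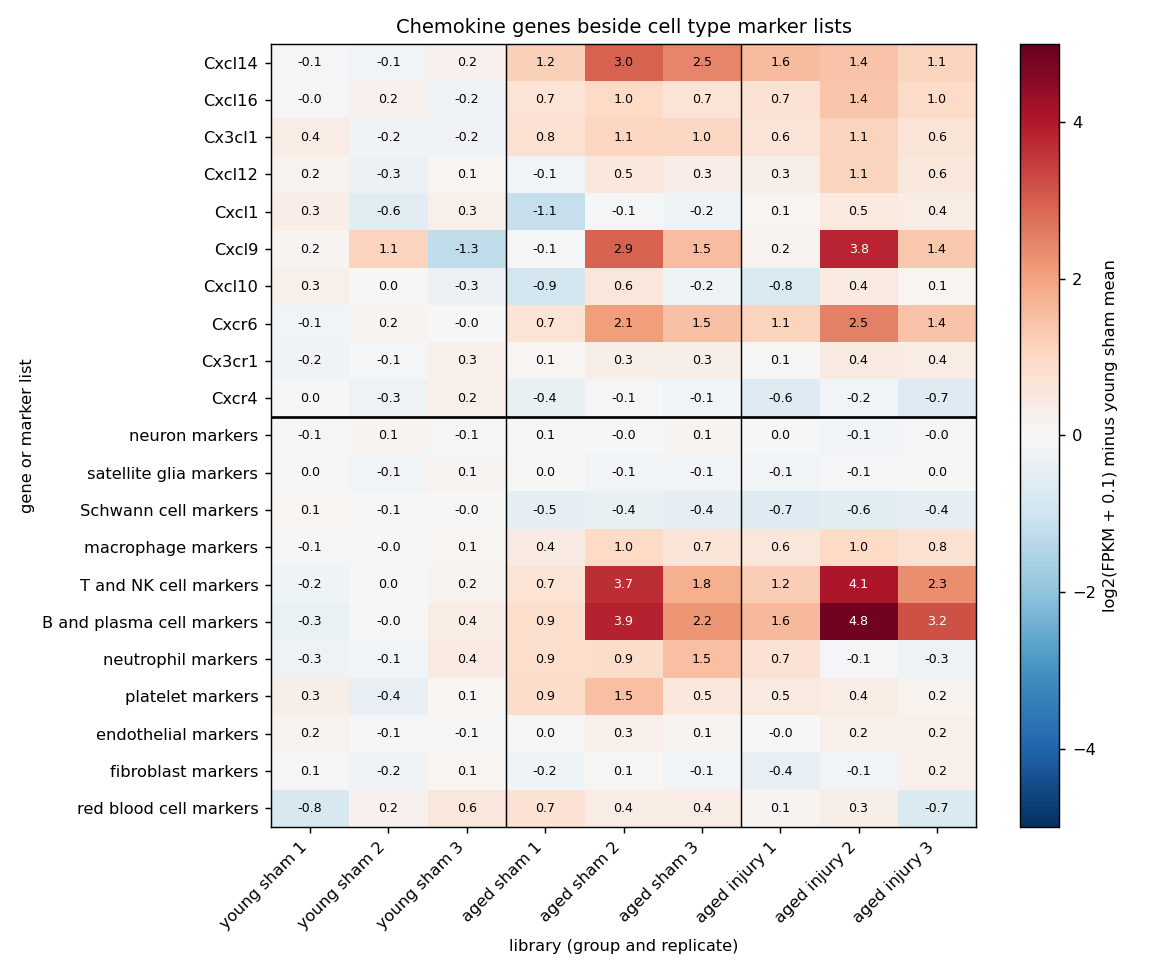
Difference of each library (columns) from the young sham mean on the log2(FPKM + 0.1) scale for the 10 members and, below the line, for the mean of each marker list. In the aged libraries numbered 2, T and NK cell markers reach 3.68 and 4.06, and B and plasma cell markers 3.85 and 4.84. Cxcl9 is at 2.93 and 3.79 there, and neuron markers stay between -0.14 and 0.15 in all libraries.

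Ligand and receptor levels, compared per length within each library, were set in ratio for the 3 pairs whose partners are both members. These ratios were chosen after the levels were seen and are given as a description, with no test. Cxcl12 over Cxcr4 was at 0.814, 0.719 and 0.657 in young sham, at 0.863, 1.11 and 1.01 in aged sham and at 1.39, 1.74 and 1.72 in aged injury. The groups did not overlap, and the ligand exceeded the receptor in each aged injury library and in no young library. Neither gene was called in the reported fit. Libraries did not overlap for 29.2% of single tested genes with age, 25.4% with injury and 35.4% between aged injury and young sham. No such share was taken over other gene pairs. Cx3cl1 over Cx3cr1 was at 0.455 to 0.938 in young sham, 1.04 to 1.11 in aged sham and 0.761 to 1.03 in aged injury. Cxcl16 over Cxcr6 was at 8.56 to 11.1 in young sham and lower in aged sham (2.98 to 7.88) and aged injury (2.86 to 5.54), with only 3 or 4 receptor reads in each young library.

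**Figure D4:**
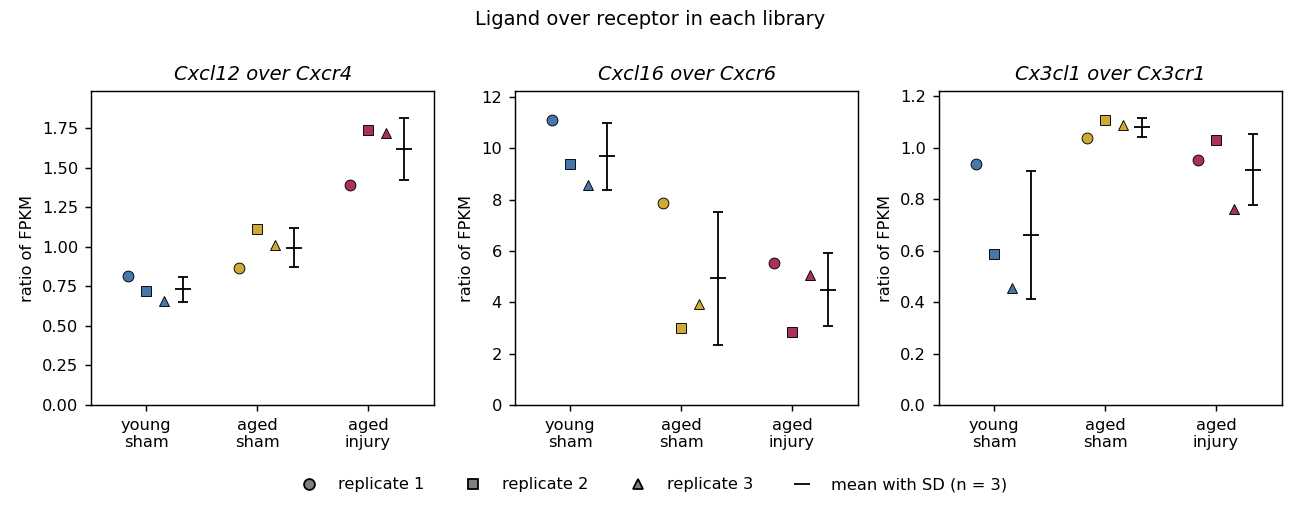
Ratio of ligand to receptor FPKM in each library (linear axis from 0), with replicates as circle, square and triangle and the group mean with SD (n = 3). Cxcl12 over Cxcr4, a ratio chosen after the levels were seen, does not overlap between the 3 groups. It is at 0.657 to 0.814 in young sham and at 1.39 to 1.74 in aged injury.

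After injury, compared with aged sham, no member was called by limma (0 of 10, and 0 at an unadjusted p under 0.05, where 3489 of 17601 tested genes lay), nor by limma voom on recovered reads. The background in that comparison was 4.11% of tested genes called, 2.45% higher and 1.65% lower. The median log2 change of the members was 0.18, beside -0.01 over all tested genes. The 95% interval was widest for Cxcl9, from -1.99 to 2.61, and narrowest for Cx3cr1. It was also wide for Cxcr6 (-0.75 to 1.30), Cxcl1 (-0.11 to 1.69), Cxcl14 (-1.69 to 0.03) and Cxcl10 (SE 0.392). Sizeable changes of Cxcl9, Cxcr6, Cxcl1, Cxcl14 and Cxcl10 are therefore not shown to be absent. Between aged injury and young sham 4 of 10 members were called, Cxcl14, Cxcl16, Cx3cl1 and Cxcr6, all higher, against 13.1% of tested genes called, 8.20% higher and 4.89% lower. Libraries did not overlap in 5 of 10 members, these 4 and Cxcl12, all higher, against 35.4% of tested genes (19.9% higher and 15.5% lower). This comparison shares libraries with the other comparisons, and the injury values of these 4 genes were -0.83, 0.25, -0.17 and 0.27 on the log2 scale. Here too, the shares describe members chosen with earlier results of these data known.

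Of 36 other genes of the pathway, 29 passed the filter on low values. With age 2 of the 29 rose and none fell by limma (13 had an unadjusted p under 0.05), with injury none was called (8 at an unadjusted p under 0.05), and between aged injury and young sham 4 rose. Over all 17601 tested genes 4.02%, 4.11% and 13.1% were called in the 3 comparisons, so the last count is near the background. At an unadjusted p under 0.05 were 4626 of all tested genes with age and 3489 with injury. The median log2 changes of the 29 were 0.24, 0.04 and 0.11, beside 0.05, -0.01 and 0.02 over all tested genes. Pf4, a CXC chemokine of platelets and of some macrophages, was at 4.92, 5.22 and 4.59 FPKM in young sham and at 10.1, 8.57 and 7.16 FPKM in aged sham. It rose 1.72-fold with age (limma adjusted p = 0.0253) and 2.18-fold between young sham and aged injury (limma adjusted p = 0.00142). The platelet marker Gp9 was at 0.0935 to 0.198 FPKM in young sham and at 0.287 to 0.575 FPKM in aged sham. After injury Gp9 stood at 0.229, 0.180 and 0.297 FPKM. Platelet markers, summed over 3 genes, were at 1.10 to 2.49 FPKM in young sham, 2.39 to 6.42 FPKM in aged sham and 1.80 to 2.36 FPKM in aged injury, where Pf4 was at 10.8 ± 1.17 FPKM. Their part in the change of Pf4 was not tested. Mmp9, a gelatinase that cleaves several chemokines, rose 2.31-fold with age (limma adjusted p = 0.0306), to 3.24 ± 0.933 FPKM from 1.31 ± 0.135 FPKM.

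The sheddases Adam10 and Adam17, which release Cx3cl1 and Cxcl16, were not called. Adam10 was at 39.0, 30.3 and 35.6 FPKM in young sham and at 27.3, 28.5 and 24.1 FPKM in aged sham, a log2 change of -0.39 (limma adjusted p = 0.0531). Adam17 had a log2 change of -0.32 (limma adjusted p = 0.0872). Among inputs, Rela, a subunit of NF-kB, rose 1.41-fold between young sham and aged injury (limma adjusted p = 0.00268), and Arrb1, an arrestin that desensitizes receptors, rose 1.35-fold (limma adjusted p = 0.0195). Ifng, encoding interferon gamma, was listed at 0 in each young library and at 0.0513 to 0.242 FPKM in the aged ones, below the filter. Values this low rest on few reads, so 0 in the young libraries does not show absence. The interferon target Irf1 had a log2 change of 0.52 with age (limma adjusted p = 0.144).

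The receptor Cxcr3 was at 0.0518 to 0.139 FPKM in young sham and at 0.539, 1.55 and 0.673 FPKM in aged sham (log2 change 2.30, limma adjusted p = 0.0831). Cxcl13 was the fourth gene called between aged injury and young sham besides Pf4, Rela and Arrb1 (limma adjusted p = 0.0224), with 1.43, 17.7 and 6.09 FPKM in aged injury, while young sham libraries had 0.129, 0 and 0 FPKM. Cxcl13 attracts B cells, and B and plasma cell markers, summed over 4 genes, were at 1.84 to 3.13 FPKM in young sham, and 13.9 to 110 FPKM in aged injury. The atypical receptor Ackr1, which binds chemokines on venules, was abundant, at 71.3 to 103 FPKM over the young and aged sham libraries, and was not called. The neutrophil chemokines Cxcl2, Cxcl3 and Cxcl5 were below the filter.

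For the 4 called members, the genes with the most similar pattern over the 9 libraries were found among 12123 candidates, by the mean absolute difference of centred log2(FPKM + 0.1) values. Nearest to Cxcl14 was Gpnmb, a glycoprotein of lipid-laden macrophages and of melanocytes (0.20, against a median of 0.82 over the candidates), then Pglyrp1 (0.32) and Lyz2 (0.39). Gpnmb was at means of 1.52, 8.61 and 4.70 FPKM in young sham, aged sham and aged injury. Nearest to Cxcl16 were Klf2 (0.09), Mfng (0.10) and Ier5 (0.10), against a median of 0.41. Nearest to Cx3cl1 were Cmtm7 (0.12), Tmem154 (0.13) and B2m (0.14), against a median of 0.40. Nearest to Cxcr6 were Laptm5 (0.14), Cd74 (0.15) and Apobec3 (0.15), against a median of 0.77. These distances include the differences between groups and the shared depth of each library, and are a description. The nearest of 12123 candidates lie below the median by construction.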

How the data were processed

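RNA from whole sciatic dorsal root ganglia was sequenced in 9 libraries. The deposited values are FPKM made by the authors, as the deposited table is named. Per the submitters' processing notes, with no role or order, the build was mm10 and the tools included HTSeq 0.6.0, TopHat2 2.0.12 and limma 3.22.7. Annotation release and strand handling: not given in the sources used here. Columns were matched to samples by name, and symbols and positions came from GENCODE M21 on the same build (16841 of 17601 tested identifiers had a symbol).

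Identifiers averaging 0.2 FPKM or more over all libraries were tested on log2(FPKM + 0.1) with limma 3.58.1 in R 4.3.3. All 9 libraries entered 1 fit with a variance trend and two-sided moderated tests. Benjamini-Hochberg adjustment ran over 17601 identifiers, and an adjusted p under 0.05 was called. The scale understates changes of low genes. The tests weigh differences against the spread between pools of 2 mice. Whole reads (within 0.001, multiples up to 20000) were recovered for 99.9% of tested identifiers, and 79.3% of their steps matched the annotated length within root 2. The fit was tested on simulated data.

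Members and lists were chosen with earlier results of these data known. All 10 members are named, other pathway genes where called or needed beside a member, and for called members the 3 nearest genes by pattern. Alternatives changed the pseudocount, filter, scaling, groups fitted, replicate block and libraries. Limma voom on recovered reads and the fit without both aged libraries numbered 2 were added after the data were seen.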

Additional observations from a re-analysis of the deposited data

How the results depend on the processing

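Of the alternative values for single members, 482 kept their direction and side of the threshold, 68 lost a call, 3 gained one and 11 changed sign, each of the 11 in a fit with 1 library left out and none of a called value. Most of the 482 were values called in neither fit. Outside the fits with 1 library left out, the age call held in 7 of 10 alternatives for Cxcl14, 5 for Cxcl16 and 6 for Cx3cl1. Between aged injury and young sham it held in 4 of 10 for Cxcl14, 10 for Cxcl16, 6 for Cx3cl1 and 6 of 9 for Cxcr6. Members called with age numbered 3 in the reported fit, 1 with no filter, 0 in fits of just the 2 groups compared, 1 with a replicate block, 0 without both aged libraries numbered 2, and 0 to 2 with 1 library left out. Members called between aged injury and young sham numbered 4, and 2 with a pseudocount of 1 FPKM, 1 with no filter, 2 with the replicate block, 1 without both aged libraries numbered 2, and 1 to 4 with 1 library left out. Members called with injury numbered 0, and 0 to 1 with 1 library left out. The cause was not tested, apart from the fewer libraries or more identifiers that these settings hold by construction. Over all tested genes, 707 were called with age, 239 with no filter, 31 with the 2 groups alone, 101 with the replicate block, 1072 with limma voom on recovered reads, 28 without both aged libraries numbered 2 and 23 to 1536 with 1 library left out. With injury 723 were called, 302 with the 2 groups alone, 273 with the replicate block, 43 without both aged libraries numbered 2 and 151 to 740 with 1 library left out. Between aged injury and young sham 2304 were called, 1024 without both aged libraries numbered 2 and 869 to 2365 with 1 library left out. The split of higher and lower calls, 445 and 262 with age, was 281 and 536 with equal medians and 388 and 509 after quantile normalization. With injury it was 432 and 291, and 287 and 294 with equal medians. Between aged injury and young sham it was 1444 and 860, 1029 and 1670 with equal medians and 1168 and 1241 after quantile normalization. Cxcl14, Cxcl16 and Cx3cl1 kept their age calls under both scalings, and after quantile normalization Cxcl14 lost its call in aged injury against young sham (1.18, limma adjusted p = 0.0644).

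With 1 library left out, the log2 change of Cxcl10 ran from -0.56 to 0.18 with age, from -0.25 to 0.49 with injury and from -0.33 to 0.26 between aged injury and young sham. The injury change ran from -0.70 to 1.11 for Cxcl9, from -0.0044 to 0.18 for Cx3cr1 and from -0.15 to 0.62 for Cxcr6. Same-numbered libraries were not paired by the labels. With the replicate block the members called were Cxcl16 with age, and Cxcl16 and Cxcr6 between aged injury and young sham. The correlation of same-numbered libraries' deviations from the group means was -0.0288, -0.0667 and -0.0482 with age, and 0.245, 0.270 and 0.0625 with injury. Each aged library correlated best with its own number in the other aged group, a hint from the data and not from the design. Filtering at a mean of 1 FPKM gave no value for Cxcl1 and Cxcr6. Depth limits Cxcl1 and Cxcr6 most, with 1 to 6 and 3 to 34 reads per library.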
